A study of Mus musculus with 16 samples.

Results

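The comparison concerns a diet low in protein and high in carbohydrate, set against the AIN93G reference diet in liver of progeroid mice. All libraries titled with either diet were taken, 4 of each, which makes 8 of the 16 libraries of the series. All 16 animals were male Ercc1Δ/− mice, which carry 1 truncated and 1 null allele of a DNA repair endonuclease subunit in every cell and age prematurely. They were F1 hybrids of C57BL6J and FVBN, and every animal, controls included, carried this genotype, so no repair-proficient mouse is part of any comparison here. All received AIN93G up to 8 weeks of age. The control animals then stayed on it, and the low-protein animals were given a diet with 70% of its protein and about 112% of its carbohydrate. A further 4 animals had a diet with 70% of the carbohydrate and about 194% of the protein, and the last 4 had 70% of the fat and about 112% of the carbohydrate. The diets were balanced for calories and fed ad libitum. Livers were frozen at 11 weeks of age. Each library came from a piece of whole liver of 30 mg, so fewer cells of a type and less RNA per cell cannot be told apart. The labels do not say which animals shared a litter or cage, and p-values measure the spread between these animals.

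The liver is where most surplus amino acids are taken apart. Their nitrogen enters the urea cycle and their carbon skeletons go to glucose or fat, and the enzymes for this are known to be kept lower when less protein is eaten. Protein supply also acts on the growth hormone axis, in which the hormone works on hepatocytes through the kinase JAK2 and the factor STAT5 to drive Igf1, and the feedback inhibitors Cish and Socs2 are direct STAT5 targets. Low protein intake is further known to raise the hepatic hormone Fgf21 through the factor Atf4.

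Libraries held 35243594 to 46051218 counts in control and 36662347 to 43404769 with low protein. Levels are CPM, read counts relative to the library total scaled by TMM factors, and fold changes are log2 values of low protein minus control from edgeR with their standard error (SE). Ercc1 itself (chromosome 7, 19344778 to 19356524, GRCm38) was at 1.64 ± 0.334 CPM in control and 1.56 ± 0.269 CPM with low protein (SD, n = 4 each). As all animals share the genotype, this checks no contrast. All 14 hepatocyte markers in the table, among them Alb at 47750 to 79791 CPM in control and 59215 to 79770 CPM with low protein, were abundant enough to be tested. Control 4 stood apart. Its SD over genes from the mean of the other controls was 1.29 log2 units, against 0.729 to 1.01 for controls 1 to 3 and 0.449 to 0.494 for each low-protein library against its own group. The means set against controls 1 to 3 each include control 4, so those values also carry its deviation. Among controls 1 to 3 alone the median over genes of the SD of log2 CPM was 0.28, against 0.23 with low protein. Control 3 held the most kidney transcripts, with 20 kidney genes summing to 4697 CPM against 164 to 483 CPM in the other controls and 743 to 1331 CPM with low protein. The median of the kidney list was -0.59 with all libraries and 2.09 without control 3. The part of either library in the results was not tested. Values without control 4 stand beside the results that this library moved most.

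No gene passed edgeR's quasi-likelihood test at an adjusted p of 0.05 (0% of 17833 genes tested). The smallest adjusted p was 0.682, and 1262 genes had an unadjusted p under 0.05, of which 419 were higher (2.35% of the genes tested) and 843 lower (4.73%) with low protein. DESeq2 called 10 genes (0.0578% of the 17309 with an adjusted p). Among those it put lower were Arid5b, Socs2, Acmsd, Gm48199, Gm16907, AC102496.1, Gm28857, Gm43305 and Gm47283. In edgeR these 10 had the same adjusted p of 0.682. The majority direction of these genes depended on control 4. Leaving it out lowered edgeR's count at an unadjusted p under 0.05 to 660, of which 366 were higher and 294 lower. The split was 561 higher and 499 lower with the replicate number as a block, 666 and 404 with limma-voom sample weights, and 1109 and 402 without controls 3 and 4. Leaving out control 3 or control 1 raised the count to 2786 or 2241. In each of these fits no gene passed the adjusted threshold.

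A second description, which uses no test, counts genes whose low-protein libraries all lay on one side of all controls. They numbered 288 higher (1.61% of the genes tested) and 155 lower (0.869%). With DESeq2-type size factors in place of TMM the split was 245 higher and 219 lower. Without control 4 the counts were 581 higher (3.26%) and 304 lower (1.7%) on the same scaling and genes, and 508 and 373 when the scaling factors and the filter were recomputed without it. Over all genes tested, 45.6% were higher with low protein, the median fold change was -0.03, and without control 4 these were 47.3% and -0.01.

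The feedback inhibitors of growth hormone signalling Cish and Socs2 lay below control in every low-protein library, and Cish was among the 12 genes with the widest gap on that side. Cish, a suppressor of cytokine signalling that STAT5 induces, was at 60.2, 59.7, 38 and 34.1 CPM in controls 1 to 4 and at 4.29, 13, 11 and 3.62 CPM in low-protein libraries 1 to 4. Every low-protein library thus lay below every control, and the nearest pair was low-protein 2 and control 4. The fold change was -2.58 (SE 0.73, edgeR adjusted p 0.682) and -2.73 without control 4. Cish lies on chromosome 9 from 107296026 to 107302784 (GRCm38). Its promoter, 250 bases before to 50 after the RefSeq start (GRCm38.p6, chr9:107296409-107296708, plus strand), is shown because it holds the letters TTCNNNGAA, the pattern bound by STAT5, at 2 places, in capitals.
Cish: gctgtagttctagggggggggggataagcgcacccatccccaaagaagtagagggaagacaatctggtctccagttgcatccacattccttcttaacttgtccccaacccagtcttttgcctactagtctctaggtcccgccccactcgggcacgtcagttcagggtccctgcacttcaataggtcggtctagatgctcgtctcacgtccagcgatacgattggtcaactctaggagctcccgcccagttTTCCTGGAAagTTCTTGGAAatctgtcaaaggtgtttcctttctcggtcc
The pattern reads the same on both strands, and the 2 matches do not overlap. Of all 32851 RefSeq windows of 300 bases, 8.3% held it at least once and 0.457% held it 2 or more times. The same scan found 0 matches in the windows of Igf1 and Onecut1, and 1 and 3 in the windows at the 2 starts of Bcl6, a gene whose fold change had the opposite sign to that of Cish. A match is a description of these letters and not a binding site or a cause.

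Socs2 (chromosome 10, 95385362 to 95417180), the suppressor that limits body growth by damping growth hormone receptor signals, was at 60.5, 73.3, 28.3 and 361 CPM in controls 1 to 4. It was at 10.9, 22.9, 18.3 and 22.8 CPM with low protein. Here too the groups did not overlap, although control 4 lay far above the other controls and control 3 was close to the highest low-protein library. The fold change was -2.80 (SE 0.61) and -1.55 without control 4. Igf1, Stat5a and Ghr, other genes of the axis, did not share this pattern. Igf1, the hormone through which growth hormone drives growth, was at 448 to 634 CPM in control and 461 to 528 CPM with low protein (-0.19, SE 0.13), with overlapping groups. Stat5a was at 7.26 to 13.9 CPM in control and 13 to 16 CPM with low protein (0.52, SE 0.22), also with overlap. The receptor gene Ghr was at 411 to 467 CPM in controls 1 to 3, 89.6 CPM in control 4 and 308 to 451 CPM with low protein, so that its fold change of 0.18 became -0.16 without control 4.

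The growth hormone and IGF axis list as a whole had 18 of 37 members higher and 19 lower, with a median of -0.02. Without control 4 it had 21 higher and 15 lower, with a median of 0.09. Cish and Socs2 were the only members whose libraries did not overlap, 2 of 37 against 0.869% of all genes tested on the lower side. At an unadjusted edgeR p under 0.05, 6 of 37 were lower (4.73% of all genes tested) and 1 was higher (2.35%). The binding proteins Igfbp1, which rises in fasting, and Igfbp2 depended on control 4. Igfbp1 was at 68.1 to 133 CPM in controls 1 to 3, 9721 CPM in control 4 and 60.1 to 221 CPM with low protein (-4.32, and 0.29 without control 4). Igfbp2 was at 168 to 293 CPM, 754 CPM and 270 to 331 CPM in the same order (-0.25, and 0.37 without control 4). A pair of transcription factors linked to growth hormone in liver was looked up after their values were seen. Onecut1, which the hormone induces, was at 31.5, 57.8, 16.3 and 36.2 CPM in control and 4.53, 17.3, 7.86 and 10.2 CPM with low protein (-1.82, SE 0.57), with low-protein 2 just above control 3. Bcl6, which the hormone represses, was at 33.8, 26.6, 38.6 and 6.08 CPM in control and 86.5, 16.6, 73.8 and 82.2 CPM with low protein (1.30, SE 0.62), with low-protein 2 inside the control range.

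**Figure D1:**
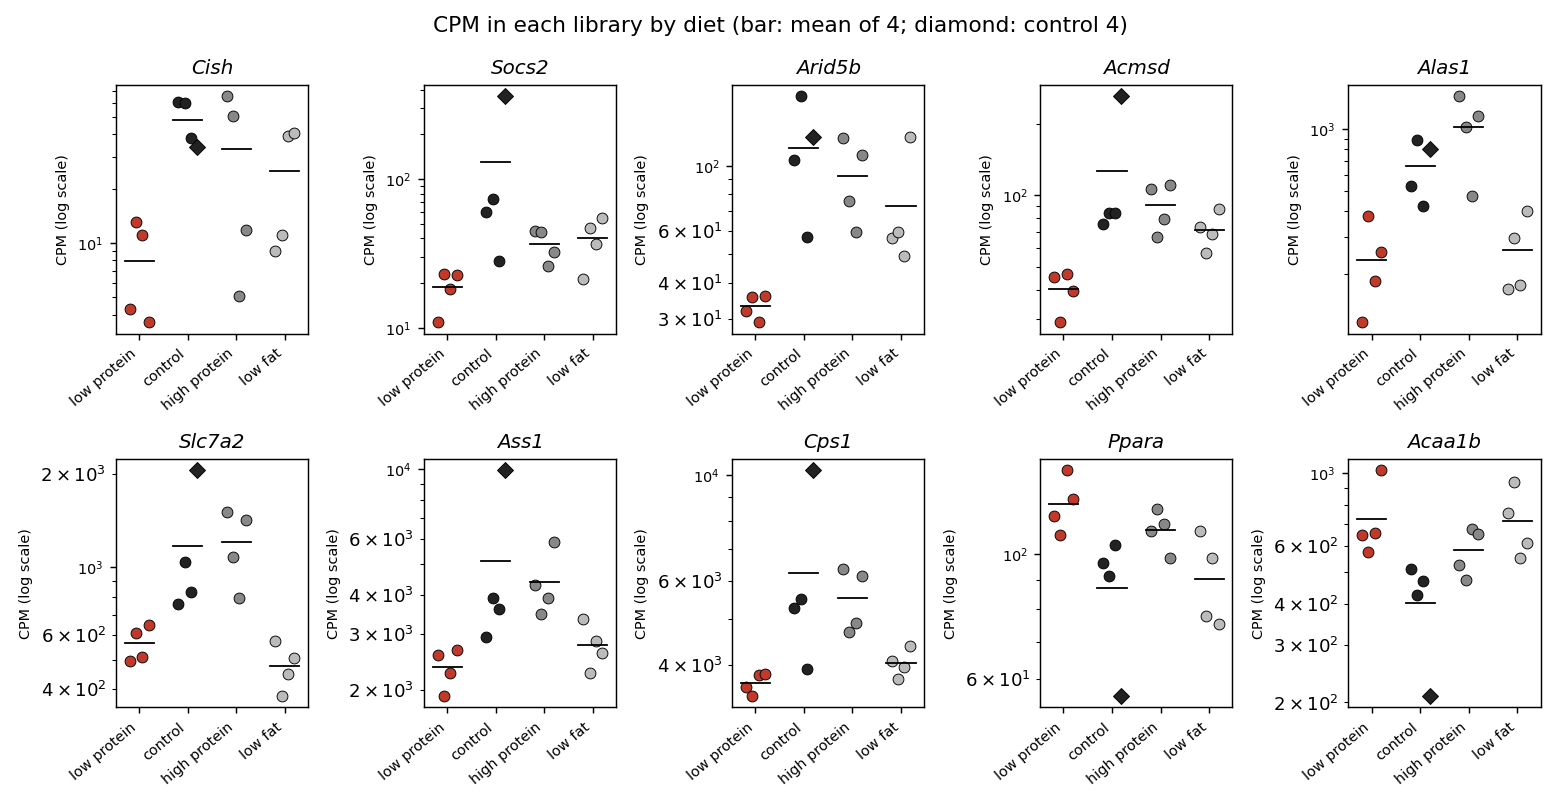
CPM on a log axis in each library of the 4 diets for 10 genes, with a horizontal bar at the mean of 4 libraries and a diamond for control 4. Low-protein points lie below all control points for Cish, Socs2, Arid5b, Acmsd, Alas1, Slc7a2, Ass1 and Cps1 and above them for Ppara and Acaa1b. For Arid5b and Acmsd they also lie below all high-protein and low-fat points.

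Arid5b and Acmsd had their low-protein libraries below all 12 others. Arid5b (chromosome 10, 68092520 to 68278740), an AT-rich interaction domain protein that recruits a histone demethylase, was at 105, 173, 57.2 and 126 CPM in control and 32, 35.9, 29.3 and 36 CPM with low protein. The low-protein libraries were close to each other and the lowest control lay well above them. The fold change was -1.79 (SE 0.34) and -1.77 without control 4, and no gene tested had a smaller unadjusted edgeR p. With high protein it was at 59.7 to 125 CPM and with low fat at 49.3 to 126 CPM. Acmsd (chromosome 1, 127729413 to 127767978), the decarboxylase that turns tryptophan carbon away from NAD synthesis, was at 75.7, 84.5, 84.3 and 262 CPM in control. It was at 45.3, 29.1, 46.7 and 39.5 CPM with low protein, 67 to 111 CPM with high protein and 56.9 to 87.6 CPM with low fat. Its fold change was -1.66 (SE 0.35), and -1.04 without control 4, which was far above the other controls.

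Only a few genes set the low-protein libraries apart from all 3 other diets. In 12 genes (0.0673%) all 4 low-protein libraries were the highest of the 16 and in 6 genes (0.0336%) they were the lowest. The same count gave 5 highest and 8 lowest for control, 16 and 12 for high protein and 8 and 19 for low fat. The 6 lowest were Arid5b, Acmsd, Snx16, Aass, Gm16907 and Ogdh. Aass, the first enzyme of lysine breakdown, was at 267, 294, 279 and 1965 CPM in control and 243, 223, 207 and 258 CPM with low protein (-1.59, and -0.28 without control 4). Ogdh, a subunit of the 2-oxoglutarate dehydrogenase of the citric acid cycle, was at 191 to 441 CPM in control and 169 to 191 CPM with low protein, a gap of 0.00 log2 units to the nearest library. The widest gap among the 12 highest was that of Chst13 (0.22 log2 units), a chondroitin sulfotransferase, at 1.93 to 4.67 CPM in control and 5.47 to 8.16 CPM with low protein (0.85, SE 0.29). Slc23a2, a vitamin C transporter, was at 21.6 to 34.9 CPM in control and 36.4 to 41.4 CPM with low protein (0.42, SE 0.17). Soat2, which esterifies cholesterol, was at 35.5 to 44.9 CPM in control and 47.5 to 51.9 CPM with low protein (0.32, SE 0.14). These genes were chosen after their values were seen.

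Against the other diets edgeR also called no gene. Low protein against high protein gave 0 of 17833 genes (0%) past the adjusted threshold and 922 at an unadjusted p under 0.05, and low protein against low fat gave 0 (0%) and 425. Without control 4, which enters these contrasts through the shared estimate of the spread, the counts at an unadjusted p under 0.05 were 1999 and 916. DESeq2 was not run on these 2 contrasts. Cish was -2.06 against high protein (5.06 to 65.2 CPM) and -1.64 against low fat (8.99 to 40.7 CPM), and its libraries overlapped with both. Alas1 was -2.14 against high protein and -0.16 against low fat. Slc7a2 was -1.09 and 0.24, and Ass1 was -0.90 and -0.24, in the same order. Arid5b was -1.47 and -1.13, and Acmsd was -1.18 and -0.84. The low-protein libraries enter both of these contrasts, so their values are set side by side and not counted as separate evidence.

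Of 12 genes of the urea cycle and ammonia handling, 2 had all low-protein libraries below all controls, against 0.869% of all genes tested. Cps1 (chromosome 1, 67123026 to 67231259), which takes ammonia into the urea cycle, was at 5271, 5500, 3917 and 10260 CPM in control and 3596, 3434, 3807 and 3819 CPM with low protein. Its low-protein libraries were within a factor of 1.11 of each other and all below control 3, the lowest control, with a fold change of -0.77 (SE 0.22), and -0.44 without control 4. Ass1 (chromosome 2, 31470207 to 31520672), which joins citrulline to aspartate, was at 2940, 3916, 3616 and 9956 CPM in control and 2579, 1910, 2263 and 2668 CPM with low protein. Its fold change was -1.12 (SE 0.31), and -0.59 without control 4. Cps1 and Ass1 were the members without overlap, both with and without control 4.

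The remaining steps of the cycle did not separate the diets. Asl was at 448 to 637 CPM in controls 1 to 3, 3433 CPM in control 4 and 403 to 559 CPM with low protein (-1.47, and -0.30 without control 4). Arg1, which releases urea, was at 871 to 1244 CPM, 3346 CPM and 980 to 1038 CPM in the same order (-0.73, and -0.16 without control 4). Otc was at 334 to 506 CPM, 169 CPM and 356 to 545 CPM (0.21, and -0.05 without control 4). Glutaminase Gls2, which feeds ammonia to the cycle, was at 358, 578, 428 and 762 CPM in control and 328 to 367 CPM with low protein (-0.64, SE 0.23), with overlap at control 1. In the whole list 4 of 12 members were higher and 8 lower. The median of -0.48 with all controls was -0.08 without control 4. Set against the other diets, the median fold change of this list was -0.42 against high protein and 0.06 against low fat.

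Genes for the breakdown of aromatic amino acids were mostly lower. Hgd, which opens the ring of homogentisate, was at 725 to 1135 CPM in control and 595 to 695 CPM with low protein (-0.45, SE 0.18). Its groups did not overlap. Tat, the tyrosine aminotransferase, overlapped, at 938 to 1214 CPM in controls 1 to 3, 21329 CPM in control 4 and 741 to 1171 CPM with low protein (-2.70, and -0.16 without control 4). Of the 14 genes of tyrosine, phenylalanine and tryptophan breakdown 10 were lower (median -0.16) and without control 4 11 were lower (median -0.11). The share of this list that was higher was 28.6%, against 45.6% of all genes tested, and 21.4% against 47.3% without control 4. Its median was -0.23 against high protein and 0.05 against low fat. Hgd and Acmsd were among those without overlap.

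In other amino acid pathways single genes stood out. Sds, the serine dehydratase, was at 170, 205, 206 and 2140 CPM in control and 66.6, 152, 121 and 167 CPM with low protein (-2.43, and -0.63 without control 4), with low-protein 4 just below control 1. Cth, the last enzyme of transsulfuration, was at 237 to 330 CPM in controls 1 to 3, 1574 CPM in control 4 and 229 to 299 CPM with low protein (-1.20, and -0.09 without control 4). The serine, glycine and sulfur list had a median of -0.01 over 22 genes, with 10 higher and 12 lower. Branched-chain amino acid breakdown had a median of -0.02, with 8 of 22 higher. The genes of this list without overlap included Bcat2, which was higher with low protein. Bcat2, the aminotransferase of branched-chain amino acids, was at 36.3 to 50.4 CPM in control and 52.3 to 57.3 CPM with low protein (0.38, SE 0.14). In the list of histidine, proline, lysine and arginine breakdown 9 of 12 were lower, with a median of -0.10, and 7 of 12 with -0.04 without control 4. That list had a median of -0.24 against high protein and 0.05 against low fat.

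Amino acid transporters gave 3 of 19 genes without overlap, all lower, where 0.869% of all genes tested were. Slc7a2 (chromosome 8, 40862396 to 40922308), which carries arginine and lysine, was at 755, 1035, 827 and 2064 CPM in control and 494, 608, 508 and 649 CPM with low protein. The fold change was -1.05 (SE 0.28), and -0.65 without control 4. Slc16a10, which carries aromatic amino acids, was at 111 to 135 CPM in controls 1 to 3, 494 CPM in control 4 and 86.9 to 105 CPM with low protein (-1.16, and -0.37 without control 4). Slc1a2, a glutamate carrier, was at 92.6 to 148 CPM in control and 69.2 to 87 CPM with low protein (-0.44, SE 0.19, and -0.27 without control 4). The list had 14 of 19 members lower and a median of -0.36, and 12 of 19 lower with a median of -0.15 without control 4. Its median was -0.14 against high protein and 0.00 against low fat.

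Gluconeogenesis and aminotransferase genes were mostly lower, with 13 of 16 below control and a median of -0.56, and 11 of 16 with a median of -0.17 without control 4. Got1, the cytosolic aspartate aminotransferase, was the 1 of 16 without overlap, against 0.869% of all genes tested on the lower side. It was at 333, 573, 386 and 7401 CPM in control and 242, 281, 185 and 327 CPM with low protein (-3.07, SE 0.87, and -0.75 without control 4). Pck1, which commits carbon to glucose, was at 2181 to 2729 CPM in controls 1 to 3, 16339 CPM in control 4 and 1308 to 3044 CPM with low protein (-1.52, and -0.29 without control 4). The coactivator Ppargc1a was at 14.5, 24.8, 27.9 and 148 CPM in control and 11.7, 17.6, 9.08 and 13.1 CPM with low protein (-2.06, and -0.82 without control 4), overlapping at control 1. Gpt, the alanine aminotransferase, was at 379 to 728 CPM and 360 to 416 CPM (-0.34, SE 0.19, and -0.12 without control 4). The median of the whole list was -0.54 against high protein and 0.00 against low fat.

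The size of several of these differences was set by control 4, and this was most marked in genes that glucocorticoids and fasting induce. With all controls 18 of 19 genes of that list were lower with low protein and the median was -2.10. Without control 4 8 of 19 were lower and the median was 0.03. Relative to the mean of all 16 libraries, the list's median deviation was 3.07 log2 units in control 4, -0.55 to -0.25 in controls 1 to 3 and -0.80 to -0.12 with low protein. Lpin1, a phosphatidate phosphatase of this list, was at 315, 599, 198 and 3886 CPM in control and 33.7, 178, 64.1 and 491 CPM with low protein (-2.70, -0.97 without control 4 and -3.75 without low-protein 4). The clock gene Per1, which glucocorticoids also induce, was at 18.8, 44.7, 52.5 and 340 CPM in control and 12 to 62.6 CPM with low protein (-1.62, and -0.08 without control 4). Dbp, a clock output factor, spread widely in both groups, at 13.9 to 214 CPM in control and 79.3 to 170 CPM with low protein (0.32, SE 0.74, and -0.06 without control 4).

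**Figure D2:**
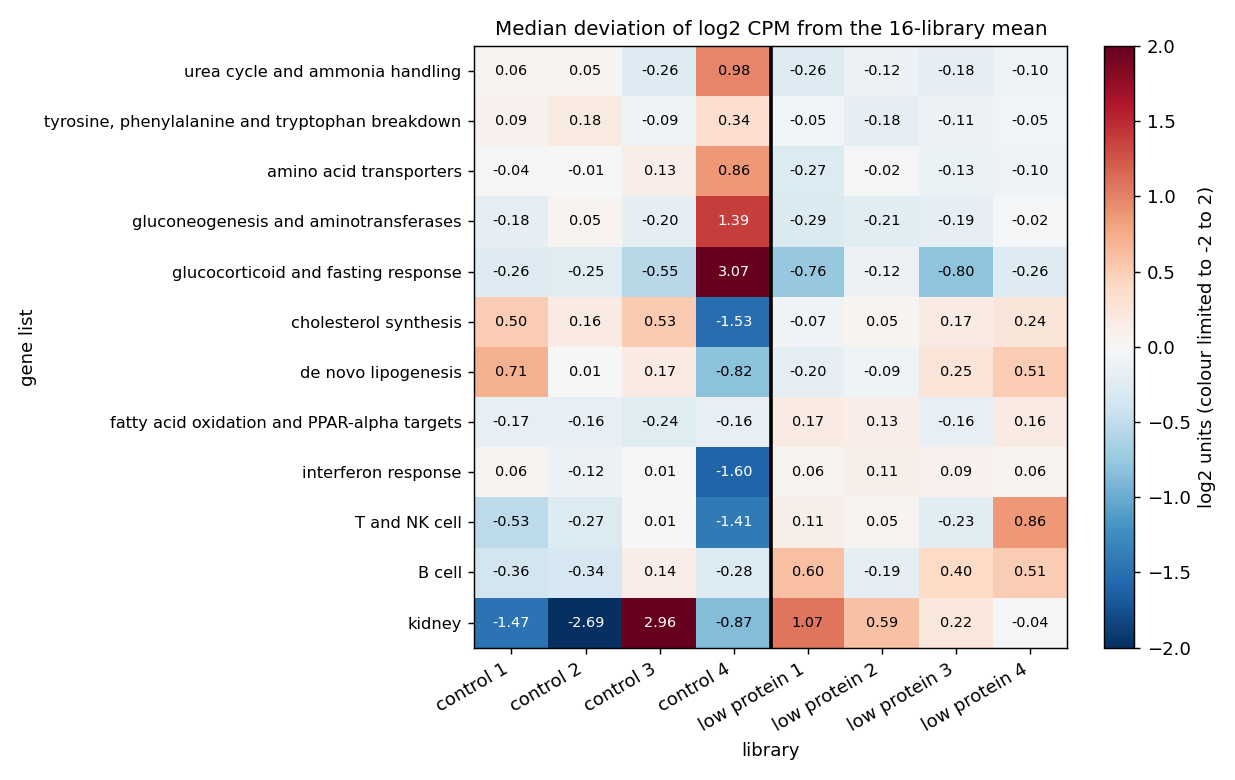
Median deviation of log2 CPM from the 16-library mean for 12 gene lists (rows) in the 8 libraries of both diets (columns), with the value written in each cell. Control 4 is the extreme library for glucocorticoid and fasting genes (3.07), gluconeogenesis (1.39), interferon response (-1.60) and cholesterol synthesis (-1.53), and control 3 for kidney genes (2.96).

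The amino acid response that Atf4 governs was not raised as a group. Of 28 genes tested 9 were higher, with a median of -0.31, and 14 were higher without control 4, with a median of 0.01. Fgf21, the hormone released by liver when protein is short, was at 0.668, 1.23, 0.094 and 0.0921 CPM in control and 2.01, 1.12, 1.13 and 4.41 CPM with low protein (2.06, SE 0.98, edgeR adjusted p 0.682). Without control 2 the Fgf21 fold change was 2.96 and without low-protein 4 it was 1.43. Control 2 lay within the low-protein range and the low-fat libraries reached 7.38 CPM. Atf4 was at 50.5 to 86.3 CPM in controls 1 to 3, 433 CPM in control 4 and 64.5 to 92.9 CPM with low protein (-1.07, and 0.06 without control 4). Asns, the asparagine synthetase it induces, was at 1.68 to 3.75 CPM in control and 1.26 to 2.22 CPM with low protein (-0.74, SE 0.36). Trib3 was at 6.39, 16.2, 18.2 and 63 CPM in control and 23.4, 23.6, 22.6 and 54.2 CPM with low protein (0.26, and 1.17 without control 4, where the groups no longer overlapped). Chac1, a glutathione-degrading target of the same pathway, was at 7.78, 10.1, 2.78 and 23.6 CPM in control and 2.01, 1.94, 2.89 and 3.23 CPM with low protein (-2.13, SE 0.57), overlapping at control 3.

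Genes of fatty acid oxidation and targets of PPAR-alpha, the receptor that turns this program on, lay mostly above control with low protein, and none passed the adjusted threshold. Of 39 genes 31 were above control (79.5%, against 45.6% of all genes tested), with a median of 0.16. Without control 4, 38 of 39 were above control (97.4%, against 47.3%) with a median of 0.24. With all controls 7 of 39 had no overlap, all higher (1.61% of all genes tested), and 10 of 39 had an unadjusted p under 0.05 in the higher direction (2.35%). The 39 genes share regulators and are not independent of each other. Low-protein 3 was the exception, with a median deviation of -0.16 against 0.13 to 0.17 in the other low-protein libraries and -0.24 to -0.16 in control, and without it the list's median was 0.28. The median fold change of the list was -0.13 against high protein and 0.05 against low fat, and its median deviation was -0.03 to 0.43 with high protein and -0.16 to 0.13 with low fat.

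Ppara itself (chromosome 15, 85734983 to 85802819) was at 96.4, 91.3, 104 and 56 CPM in control and 117, 108, 141 and 125 CPM with low protein (0.50, SE 0.18, and 0.32 without control 4), without overlap. In the mitochondrial pathway, Cpt2, which completes the carnitine transfer, was at 78.7 to 125 CPM in control and 131 to 156 CPM with low protein (0.44, SE 0.14, and 0.29 without control 4). Eci1, an enoyl-CoA isomerase, was at 60.3 to 83.2 CPM in control and 86 to 104 CPM with low protein (0.39, SE 0.15). Neither overlapped. The entry enzyme Cpt1a was at 365, 394, 383 and 565 CPM in control and 400, 471, 435 and 523 CPM with low protein (0.10, and 0.25 without control 4), so that control 4 alone made the groups overlap. The carnitine carrier Slc25a20 was at 64.1 to 83.8 CPM in control and 78.4 to 102 CPM with low protein (0.33, SE 0.14).

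In ketone body synthesis, Bdh1, which interconverts the ketone bodies, was at 344, 341, 298 and 30.8 CPM in control and 423, 433, 359 and 467 CPM with low protein (0.73, and 0.34 without control 4). In peroxisomes, the thiolase Acaa1b (chromosome 9, 119148023 to 119157093) was at 511, 424, 470 and 209 CPM in control and 648, 576, 657 and 1024 CPM with low protein (0.85, SE 0.26, and 0.62 without control 4). Acaa1a and Acaa1b are close copies, and how reads shared between them were counted is not given in the sources used here.

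Among other targets, Fabp1, the fatty acid carrier of hepatocytes, was at 789, 586, 689 and 35.4 CPM in control and 921, 838, 949 and 1576 CPM with low protein (1.03, SE 0.56, and 0.62 without control 4), without overlap. Vnn1, a pantetheinase, was at 21.9, 17.9, 29.4 and 11 CPM in control and 45.4, 48.3, 26.1 and 40.3 CPM with low protein (1.00, SE 0.27), with low-protein 3 inside the control range. Plin2, which coats lipid droplets, was at 358, 236, 226 and 61.8 CPM in control and 544, 486, 321 and 517 CPM with low protein (1.08, SE 0.40), again with only low-protein 3 below control 1. The members below control were Ppargc1a, Acot1, Cyp4a10, Cyp4a14, Cyp4a31, Pdk4, Angptl4 and Acadvl, and without control 4 all of these but Ppargc1a were above it. Genes chosen after their values were seen give 2 further regulators of triglyceride use. G0s2, an inhibitor of the lipase Pnpla2, was at 6.62, 10.8, 18.4 and 2.36 CPM in control and 52.1, 23.5, 21.1 and 59.1 CPM with low protein (2.02, SE 0.52). Angptl8, an insulin-induced inhibitor of lipoprotein lipase, was at 6.78 to 19.8 CPM in control and 20.2 to 41.2 CPM with low protein (1.30, SE 0.44).

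**Figure D3:**
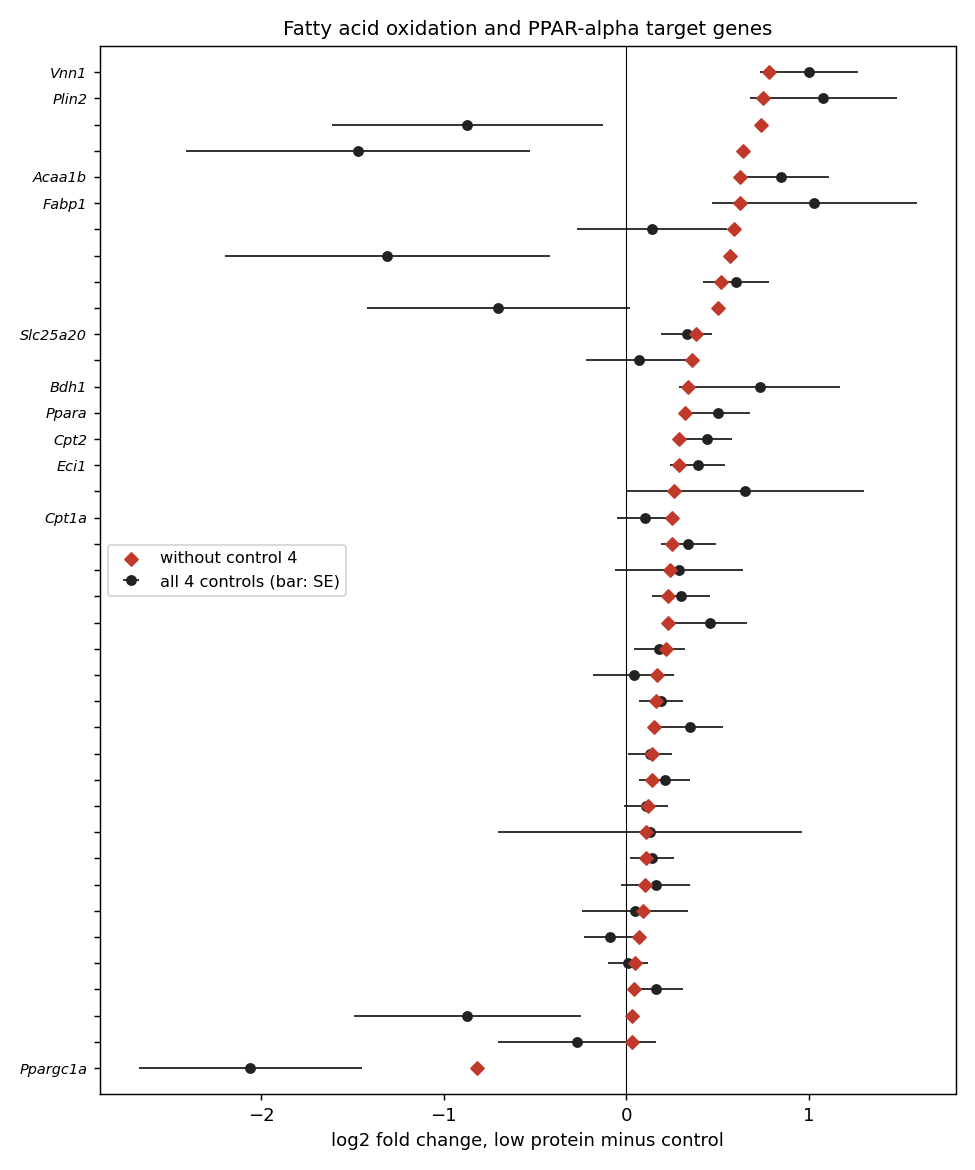
Log2 fold change of low protein minus control for the 39 genes of the PPAR-alpha and fatty acid oxidation list, with all 4 controls (circles with SE bars) and without control 4 (diamonds), and names for genes whose levels are given in the text. Without control 4, 38 of the 39 diamonds lie above 0, against 31 circles.

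Genes of sugar use and fat synthesis showed no shared difference. Carbohydrate genes had 14 of 22 higher and a median of 0.08, which was 9 of 22 and -0.06 without control 4. Pklr, the liver pyruvate kinase, was at 232 to 275 CPM in controls 1 to 3, 28.3 CPM in control 4 and 156 to 284 CPM with low protein (0.11, and -0.26 without control 4). The sugar sensor Mlxipl was at 194 to 293 CPM and 226 to 373 CPM (0.29, SE 0.25). Gpd1, which makes glycerol phosphate, was at 317, 176, 225 and 90.3 CPM in control and 301, 332, 320 and 312 CPM with low protein (0.65, SE 0.29, and 0.39 without control 4), and its low-protein libraries overlapped with control 1 only.

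Lipogenic genes had 9 of 28 higher and a median of -0.14, and 9 of 28 with -0.08 without control 4. Without low-protein 4 the median was -0.32. The regulator Srebf1 was at 315, 187, 281 and 107 CPM in control and 156, 166, 515 and 175 CPM with low protein (0.19, -0.06 without control 4 and -0.42 without low-protein 3). Acaca, which makes malonyl-CoA, was at 28.8 to 193 CPM and 79.5 to 148 CPM (-0.05, and -0.40 without control 4). Fasn, the fatty acid synthase, was at 1167, 520, 983 and 139 CPM in control and 294, 295, 867 and 798 CPM with low protein (-0.32, and -0.67 without control 4). The desaturase Scd1 was at 3527, 2312, 2633 and 383 CPM in control and 1836, 1114, 2046 and 4564 CPM with low protein (0.11, and -0.26 without control 4). Elovl6, an elongase, and Acss2, which activates acetate, lay below all of controls 1 to 3 with low protein. Elovl6 was at 170 to 211 CPM in those controls, 8.26 CPM in control 4 and 72.3 to 158 CPM with low protein (-0.31, and -0.72 without control 4), and Acss2 was at 179 to 246, 50.9 and 96.3 to 177 CPM (-0.43, and -0.75 without control 4).

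Cholesterol synthesis depended on control 4 in the opposite way to the fasting genes. With all controls 15 of 25 genes were lower and the median was -0.02. Without control 4, whose median deviation was -1.53, 23 of 25 were lower with a median of -0.34, against a median of -0.01 over all genes. Lss, the lanosterol synthase, was at 53.9 to 70.8 CPM in control and 44.9 to 58.1 CPM with low protein (-0.30, SE 0.13). Cyp7a1 (chromosome 4, 6265612 to 6275633), which starts bile acid synthesis from cholesterol, was at 266, 325, 162 and 170 CPM in control and 136, 98.9, 74.8 and 24.7 CPM with low protein. It did not overlap, and its fold change was -1.47 (SE 0.66) and -1.61 without control 4. Hsd3b7, a later enzyme of the same pathway, lay the other way, at 2.14 to 6.42 CPM in control and 6.08 to 8.58 CPM with low protein (0.98, SE 0.37). The bile acid list had 14 of 20 genes higher and a median of 0.18, and 0.07 without control 4.

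Alas1 (chromosome 9, 106233455 to 106248654), the rate-limiting enzyme of haem synthesis, was at 529, 888, 424 and 803 CPM in control and 116, 379, 185 and 254 CPM with low protein. All low-protein libraries lay below control 3, the lowest control, and they spread over a 3.28-fold range among themselves. The fold change was -1.50 (SE 0.41) and -1.41 without control 4. Its list, targets of the drug-sensing receptors CAR and PXR with Alas1 included, had 11 of 21 higher and a median of 0.03, and 13 of 21 with 0.06 without control 4. Alas1 was the 1 of 21 without overlap, against 0.869% of all genes tested on the lower side. Without control 4, 1 other member lay above the remaining controls (3.26% of all genes tested).

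**Figure D4:**
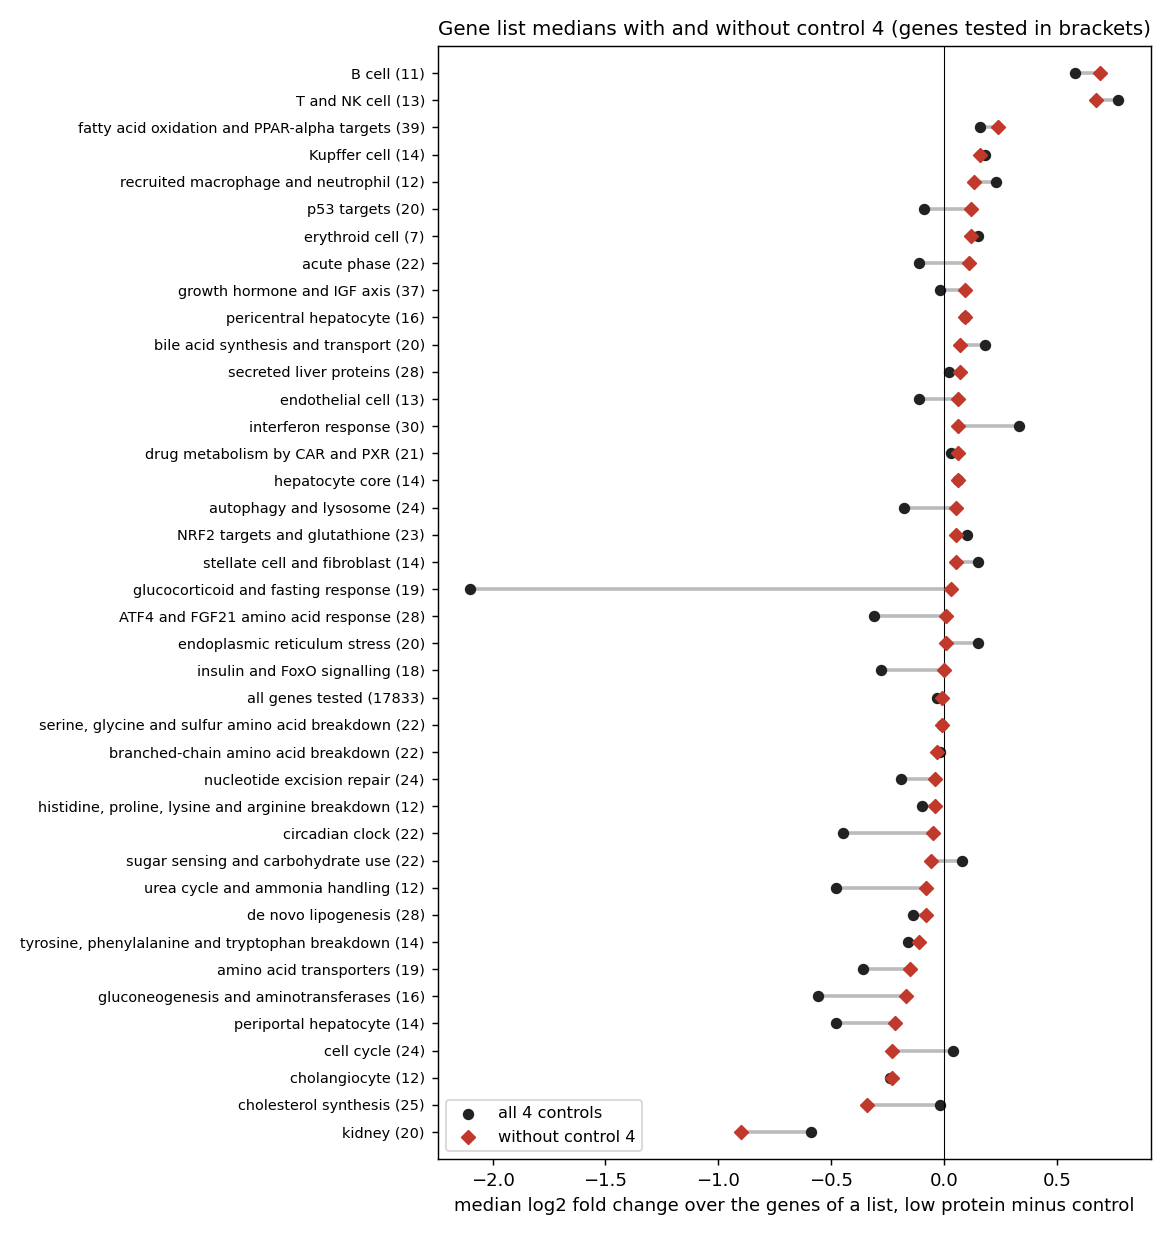
Median log2 fold change of low protein minus control for each of the 39 gene lists and for all genes tested, with all 4 controls (circles) and without control 4 (diamonds). The glucocorticoid and fasting list goes from -2.10 to 0.03, while fatty acid oxidation (0.16 and 0.24), T and NK cell (0.77 and 0.67) and B cell (0.58 and 0.69) lists are above 0 in both.

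Nucleotide excision repair, the pathway that needs Ercc1, had 7 of 24 higher (29.2%, against 45.6% of all genes tested) and a median of -0.19, and 9 of 24 with -0.04 without control 4. On the lower side 2 of 24 had no overlap (0.869% of all genes tested), and 3 of 24 without control 4 (1.7%). Ercc8, which acts when transcription stalls at lesions, was at 5.34, 3.81, 4.83 and 6.11 CPM in control and 3.56, 3.5, 3.62 and 3.51 CPM with low protein (-0.50, SE 0.18), and Rpa1, a subunit of the single-strand binding protein, was at 42.5 to 47.9 CPM and 34.6 to 41.5 CPM (-0.19, SE 0.10). Both lay below all controls. The damage sensor Ddb2 was at 2.58 to 4.2 CPM in control and 3.99 to 4.96 CPM with low protein (0.42, SE 0.17), with overlap. Among 20 p53 targets 8 were higher (40%, against 45.6% of all genes tested, median -0.09), and 15 without control 4 (75%, against 47.3%, median 0.12). Phlda3, which p53 induces to restrain Akt, was the 1 of 20 without overlap, against 1.61% of all genes tested on the higher side. It was at 2.24 to 6.1 CPM in control and 6.32 to 7.62 CPM with low protein (0.56, and 0.31 without control 4). In the autophagy list Eva1a was at 62.1 to 72.3 CPM in control and 75.2 to 88.2 CPM with low protein (0.26, SE 0.14), without overlap.

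The series title names a decline of transcription with gene length. For each library the slope of the deviation of log2 CPM on log10 genomic length was computed across 14252 protein-coding genes. Slopes were 0.035, -0.095, 0.132 and 0.110 in controls 1 to 4 and 0.056, -0.068, 0.016 and -0.101 with low protein. The means were 0.045 ± 0.103 and -0.024 ± 0.073 (SD, n = 4 each), and the slopes overlapped. The difference of -0.070 had an exact two-sided permutation p of 0.314 over 70 assignments, where the smallest possible is 0.029. Without single libraries the difference ran from -0.117 to -0.041, and restricted to 9492 genes with a mean of at least 5 CPM it was -0.077 (exact permutation p = 0.200).

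Markers of lymphocytes lay mostly above control with low protein. Of 13 T and NK cell genes 12 were above control with a median of 0.77 (0.67 without control 4), and of 11 B cell genes 11 were (10 without control 4), with medians of 0.58 and 0.69. Over all genes tested 45.6% were above control, and 47.3% without control 4. The T and NK cell median was 0.47 without low-protein 4 and 1.09 without control 3, and without control 3 the B cell median was 0.91. The summed level of the T and NK cell genes was 3.04 to 6.92 CPM in control and 7.01 to 11.9 CPM with low protein. That of the B cell genes was 8.66 to 12.8 CPM and 8.97 to 17.8 CPM. These are low levels in whole liver. Cd3d, a chain of the T cell receptor complex, was at 0.116, 0.14, 0 and 0 CPM in control and 0.262, 0.154, 0.271 and 0.356 CPM with low protein. Ms4a1, the B cell antigen CD20, was at 0.174, 0.28, 0.244 and 0.0921 CPM in control and 0.994, 0.286, 0.52 and 0.904 CPM with low protein (1.74, SE 0.70), and low-protein 2 barely exceeded control 2. Cd79a of the B cell receptor was at 0.056 to 0.583 CPM and 0.507 to 1.13 CPM (1.19, SE 0.48). In the low-fat libraries the summed T and NK cell level was 8.73 to 15.2 CPM and the B cell level 13.2 to 37.5 CPM, above the control range in both. In the high-protein libraries the T and NK cell sum was 6.7 to 9.09 CPM, with only the lowest inside the control range. The B cell sum there was 6.74 to 9.95 CPM and overlapped with control.

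Kupffer cell genes were higher for 11 of 14, with a median of 0.18 that was 0.07 without low-protein 4 and 0.29 without control 3. Adgre1, the macrophage marker F4/80, was at 6.3, 7.03, 7.09 and 3.07 CPM in control and 7.25, 8.57, 7.37 and 8.69 CPM with low protein (0.44, and 0.21 without control 4), without overlap. Interferon genes were higher for 28 of 30 (93.3%, against 45.6% of all genes tested) with a median of 0.33. Without control 4, whose median deviation was -1.60, they were higher for 19 of 30 (63.3%, against 47.3%) with a median of 0.06. Mx1, an antiviral GTPase, was at 0.46 to 1.54 CPM in control and 1.67 to 2.23 CPM with low protein (0.85, SE 0.33), and Mx2 was at 10.3 to 13 CPM and 13.7 to 15.9 CPM (0.33, SE 0.21). The Mx genes alone in this list had no overlap, 2 of 30 against 1.61% of all genes tested on the higher side. Irf1, an interferon-induced factor, was at 14.5 to 29.6 CPM and 25.5 to 42.7 CPM (0.73, SE 0.23). Of cell cycle genes 13 of 24 were higher (median 0.04), and 8 of 24 without control 4 (median -0.23). Ccnb2, a mitotic cyclin, was at 0.276 to 0.869 CPM in control and 0.89 to 1.13 CPM with low protein (0.70, and 0.45 without control 4).

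Genes that mark position along the liver lobule were compared in RNA of whole liver, which does not itself show position. Periportal genes had 11 of 14 lower and a median of -0.48 (-0.22 without control 4), and they share Cps1, Ass1 and Sds with the amino acid lists. The periportal median was -0.52 against high protein and -0.11 against low fat. Pericentral genes had 9 of 16 higher and a median of 0.09, which was -0.01 without controls 3 and 4. Of these 16 genes 1 had all low-protein libraries above all controls (1.61% of all genes tested). Another 1 had them all below (0.869%). Tbx3, a factor of pericentral hepatocytes, was at 21.7, 9.56, 13.9 and 15.3 CPM in control and 33.7, 23, 24.8 and 26.4 CPM with low protein (0.84, SE 0.34), without overlap.

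The genes with the widest gaps between the diets, among those with a mean of at least 2 CPM, included several with little known role in liver. On the higher side, Hsd17b6 (chromosome 10, 127990936 to 128007611), a steroid dehydrogenase, was at 110, 136, 89.8 and 105 CPM in control and 190, 164, 212 and 177 CPM with low protein (0.75, SE 0.18, and 0.71 without control 4). Unc119, a carrier of lipid-modified proteins, was at 1.9 to 2.93 CPM in control and 3.97 to 5.09 CPM with low protein (0.98, SE 0.23). Exo5, a single-strand DNA exonuclease, was at 1.32 to 2.3 CPM and 2.88 to 5.34 CPM (0.94, SE 0.24). Further genes on this side were Eln, the elastin gene, at 2.58 to 3.28 CPM and 4.11 to 4.93 CPM (0.64, SE 0.20), the Ras-binding Rassf5 at 5.56 to 7.35 CPM and 8.88 to 11.3 CPM (0.61, SE 0.18) and the sphingosine phosphate receptor S1pr2 at 2.61 to 3.67 CPM and 4.44 to 5.26 CPM (0.57, SE 0.21). Wdfy4, needed for cross-presentation by dendritic cells, was at 0.583 to 3.4 CPM and 4.83 to 6.62 CPM (1.05, and 0.71 without control 4). Crybg2, Odf3b and the noncoding Gm30177, 9330175E14Rik and Gm17753 complete the 12.

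On the lower side, Btbd19 was at 8.85, 9.5, 5.11 and 6.48 CPM in control and 2.41, 2.91, 3.07 and 1.4 CPM with low protein (-1.61, SE 0.57). Its fold change against high protein was -2.84, with 2.6 to 39.5 CPM there. Plk3, a stress-responsive kinase, was at 108, 198, 63.3 and 685 CPM in control and 48, 49.2, 43.5 and 30.1 CPM with low protein (-2.63, and -1.55 without control 4). It overlaps the gene Tctex1d4 in the annotation, and their reads may not be told apart. Plk3 (chromosome 4, 117128655 to 117133963) also lies close to Btbd19 (117119219 to 117125725) on the same strand. Whether the differences of Plk3 and Btbd19 are separate was not tested. Wsb1, a subunit of a ubiquitin ligase, was at 40.8 to 42.2 CPM in controls 1 to 3, 122 CPM in control 4 and 21.3 to 30.6 CPM with low protein (-1.33, and -0.78 without control 4). Noncoding transcripts made up most of the others. 1700018L02Rik was at 43.8, 60.3, 17.3 and 12.3 CPM in control and 2.93, 3.88, 6.28 and 4.55 CPM with low protein (-2.92, SE 0.89), and it lies antisense to Ak3. Gm45244 was at 7.43 to 17 CPM in control and 2.31 to 4.69 CPM with low protein (-1.83, SE 0.51) and overlaps Acsl1. Gm48199 was at 15.6, 3.67, 4.06 and 177 CPM in control and 1.41, 2.53, 1.2 and 1.62 CPM with low protein (-4.88, and -2.21 without control 4). Gm16907 was at 3.83, 4.09, 2.86 and 14.5 CPM and 1.91, 1.74, 1.81 and 1.73 CPM (-1.81, and -1.02 without control 4). Gdap10, which lies within Nampt, was at 4.61 to 16.6 CPM in control and 1.51 to 2.96 CPM with low protein (-1.99, and -1.40 without control 4). AC096777.1, within Epas1, completes the 12 but reached the mean of 2 CPM only through control 4, at 51.8 CPM, with 0.336 to 0.406 CPM in controls 1 to 3 and 0 to 0.157 CPM with low protein (-7.12, and -1.97 without control 4).

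The spread between libraries was compared last. The median over genes of the SD of log2 CPM was 0.52 in control, 0.28 in controls 1 to 3, 0.23 with low protein, 0.28 with high protein and 0.26 with low fat. The SD with low protein was below that of control in 84.5% of genes, and in 61.5% without control 4.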

How the data were processed

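Raw read counts by gene, as whole numbers, were deposited by the authors in a single table that covers the 16 livers, and the libraries were directional. The build GRCm38.p6 and the tools featureCounts, STAR 2.7.0f, edgeR 3.32.1, Subread 1.6.4 and Trimmomatic 0.39 are named per the submitters' processing notes. Strand setting and annotation release: not given in the sources used here. Hence antisense and overlapping genes are uncertain, as are close copies. Of 54752 genes, 53861 matched GENCODE M21 by identifier and version and 862 by identifier alone. Groups come from the sample titles. The library numbers in the labels are 15, 16, 18 and 24 for control and 3, 5, 11 and 12 for low protein. Whether they mark a batch is not stated. The control and low-protein numbers do not overlap, so a batch that followed them could not be told apart from the diet.

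Counts were fitted with edgeR 4.0.16 (TMM factors, filterByExpr, quasi-likelihood test, 4 group means, all 16 libraries, 12 residual degrees of freedom), two-sided, with Benjamini-Hochberg adjustment over 17833 genes at 0.05. Library totals bound the counting error, which is small beside the spread between animals when summed over genes. This sum does not cover genes at few counts, among them Cd3d, Ms4a1 and Fgf21, where counting error can be large. The range of chi-square per degree of freedom between replicates was 45.2 to 657. Non-overlap was read on log2 CPM with a prior count of 2. The steps were tested on simulated data in which no library stood apart as control 3 and control 4 do. Such data cannot show how many changes could be found here. Alternatives were other scaling factors, filters and samples, a replicate block, a kidney covariate, DESeq2 1.42.0 and limma-voom (limma 3.58.1). The compared diets and the 39 gene lists were chosen with earlier results of these data known. Genes were named by a rule: the 12 widest gaps in each direction at a mean of at least 2 CPM, members of a list without overlap or among its 3 smallest p-values, and a set of metabolic genes whatever their values. Not every gene it names is printed. Some results are not reported here.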

Additional observations from a re-analysis of the deposited data

Results flagged for a closer look

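In each group of 4 libraries, the highest or lowest value was checked for a gap to the next that exceeded Dixon's 95% critical value, which chance passes in about 1 of 20 groups. For the named genes, the kidney sum and the distance of a library from its group, 39 of 220 groups passed it, of which 31 were set by control 4. The other 8 were spread over 4 libraries.

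Control 4 was the highest control for the amino acid enzymes and carriers Ass1 (9956 CPM), Asl (3433 CPM), Arg1 (3346 CPM), Tat (21329 CPM), Sds (2140 CPM), Aass (1965 CPM), Cth (1574 CPM), Acmsd (262 CPM), Slc1a2 (148 CPM) and Slc16a10 (494 CPM). The same held for Got1 (7401 CPM), Pck1 (16339 CPM), Ppargc1a (148 CPM), Lpin1 (3886 CPM), Cpt1a (565 CPM), Ogdh (441 CPM), Igfbp1 (9721 CPM), Socs2 (361 CPM), Atf4 (433 CPM), Per1 (340 CPM) and Wsb1 (122 CPM). It was also the highest for the noncoding AC096777.1 (51.8 CPM), Gdap10 (16.6 CPM), Gm16907 (14.5 CPM), Gm48199 (177 CPM), Gm28857 (5.99 CPM) and Gm43305 (635 CPM). Control 4 was the lowest control for Ghr (89.6 CPM), Bdh1 (30.8 CPM), Wdfy4 (0.583 CPM) and Gm17753 (0.276 CPM).

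Control 3 was the lowest control for Odf3b (4.17 CPM), and its kidney genes summed to 4697 CPM. Among low-protein libraries, replicate 1 was the lowest for Bcat2 (52.3 CPM), Gpt (360 CPM) and Gm47283 (22.9 CPM). Replicate 3 was the highest for Srebf1 (515 CPM). Replicate 4 was the highest for Trib3 (54.2 CPM) and Fabp1 (1576 CPM).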

How the results depend on the processing

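With edgeR or limma-voom no gene passed the adjusted threshold in any alternative, and DESeq2 called 10. Genes at an unadjusted edgeR p under 0.05 numbered 1262 with all libraries, 660 to 2786 with single libraries left out, 547 in a fit of only the 8 libraries and 1920 with no low-count filter. Against high protein and low fat they ran from 610 to 1999 and from 284 to 916 with single libraries left out, and were 1458 and 894 with no low-count filter and 2228 and 1371 without controls 3 and 4. The genes without overlap numbered 456 to 1205 higher and 259 to 707 lower with single libraries left out, 255 lower with no low-count filter, and 2409 higher and 1244 lower without controls 3 and 4 together, a setting added after seeing the data. Fewer libraries overlap less often by construction. The numbers 1 to 4 in the titles recur in each diet. With them as a block, edgeR called 0 genes in low protein against control, high protein and low fat, and had 1060, 1166 and 439 at an unadjusted p under 0.05, and Acaca turned to 0.07. Same-numbered control and low-protein libraries had correlations of deviations of -0.018, -0.135, -0.054 and 0.044. No control or low-protein library correlated best with the library of its own number. Whether the numbers mark a pairing is not stated in the labels.

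List medians that moved by more than the spread between libraries did so as follows, and the cause was not tested. With single libraries left out the ranges were -0.60 to -0.08 for the urea cycle, -0.47 to 0.01 for the Atf4 response, 0.16 to 0.28 for fatty acid oxidation, -2.41 to 0.03 for glucocorticoid genes, -0.21 to -0.04 for excision repair, -0.04 to 0.24 for pericentral, 0.12 to 0.44 for recruited macrophage, 0.49 to 0.91 for B cell, -0.46 to 0.63 for cholangiocyte and -0.98 to 2.09 for kidney genes. With voom sample weights the medians were 0.03 for the Atf4 response, 0.00 for transporters, -0.13 for glucocorticoid genes, 0.19 for the clock, 0.02 for bile acids, -0.04 for excision repair and 1.70 for kidney. Without controls 3 and 4 they were 0.04, 0.01, 0.02, 0.11, -0.02, -0.06 and 2.44 in that order, and 0.28 for fatty acid oxidation, 0.95 for B cell, 0.23 for endothelial, 0.93 for cholangiocyte and 0.75 for erythroid genes.

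Of 108 named genes 94 kept their direction in all alternatives. Of the other 14, those that turned with a single library left out had these ranges: Ghr -0.16 to 0.33, Igfbp1 -4.74 to 0.29, Igfbp2 -0.48 to 0.37, Otc -0.05 to 0.40, Atf4 -1.32 to 0.06, Trib3 -0.15 to 1.17, Pklr -0.26 to 0.30, Srebf1 -0.42 to 0.39, Acaca -0.40 to 0.24, Fasn -0.67 to 0.03, Scd1 -0.43 to 0.42, Ercc1 -0.17 to 0.04 and Dbp -0.06 to 0.88. With voom weights Ghr was -0.09, Igfbp2 0.40, Otc -0.12, Pklr -0.17, Srebf1 -0.04 and Scd1 -0.36. Without controls 3 and 4 Ghr was -0.14, Igfbp1 0.10, Igfbp2 0.41, Otc -0.19, Pklr -0.24, Scd1 -0.29 and Per1 0.22. Cish was -2.93 to -2.36 with single libraries left out. The kidney covariate and the factors other than TMM turned no named gene.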

Other observations

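The gene lists not described so far had these values, none with a gene past edgeR's adjusted threshold. Insulin and FoxO signalling had 6 of 18 genes higher and a median of -0.28, and 9 of 18 with 0.00 without control 4. Circadian clock genes had 6 of 22 higher and a median of -0.45 (-0.05 without control 4). NRF2 and glutathione genes, the defence against oxidants, had 15 of 23 higher with a median of 0.10 (0.05), and endoplasmic reticulum stress genes 14 of 20 with 0.15 (0.01). Acute phase genes had 7 of 22 higher with a median of -0.11, and 18 of 22 with 0.11 without control 4. Secreted liver proteins had 15 of 28 higher with 0.02 (0.07), and autophagy and lysosome genes 6 of 24 with -0.18 (0.05). The core hepatocyte list had 9 of 14 higher and a median of 0.06 with and without control 4. Among other cell types, recruited macrophage and neutrophil genes had 8 of 12 higher with 0.23 (0.13), stellate cell and fibroblast genes 11 of 14 with 0.15 (0.05), endothelial genes 2 of 13 with -0.11 (0.06), cholangiocyte genes 3 of 12 with -0.24 (-0.23) and erythroid genes 5 of 7 with 0.15 (0.12). The cholangiocyte median was 0.63 and the erythroid median 0.61 without control 3, the library with the most kidney transcripts.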
